A study of Mus musculus with 6 samples.

Results

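The granzyme, perforin and cytotoxic granule genes are the 10 genes Gzma, Gzmb, Gzmk, Gzmm, Prf1, Nkg7, Ctsw, Cst7, Serpinb9 and Serpinb6b, and they were followed here in CTLA-4 KO and wild type T cells. Their members were defined by symbol: every probe set that the array annotation maps to exactly 1 of these genes was taken, which gave 12 of the 45101 probe sets on the array and 10 of the 18193 genes it names. Prf1 and Serpinb9 have several probe sets each, and the other 8 genes have 1. All 12 probe sets passed the filter on dim signals. The filter took the mean over all 6 arrays, and Gzmb, whose wild type mean lay under its floor, passed through its CTLA-4 KO values.

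The study measured gene expression on 6 arrays, 3 of CTLA-4 KO and 3 of wild type cells. The donors of both genotypes carried the transgenic 5C.C7 T cell receptor, were RAG2-/- and had the CD45.1 marker. The CTLA-4 KO donors were CTLA-4-/- as well, and the wild type donors were not. In both, the cells were transferred into B10.A recipients, which keep their own lymphocytes, were activated by immunization with MCC peptide (from moth cytochrome c, the antigen of this receptor) and LPS, and were sorted 4 days later. Age, the sorting gate and the number of mice behind an array are not given in the labels, so the p-values measure the spread between these arrays, part of which may be technical. Values are probe set intensities, and they compare 1 probe set between arrays, not different genes with each other. In such sorted populations, fewer cells that express a gene and less RNA per cell cannot be told apart.

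The arrays had a common scale, with a trimmed mean intensity of 500.003 on each. Ctla4 had 812, 791 and 784 on the CTLA-4 KO arrays and 5332, 4787 and 4587 on the wild type arrays, and its probe set cannot be placed relative to the deleted part here. Cd4 had 5473 ± 461 in CTLA-4 KO and 5148 ± 241 in wild type (SD, n = 3). The 5' to 3' signal ratio of Actb, a sign of RNA integrity, was 0.567, 0.691 and 0.544 in CTLA-4 KO replicates 1, 2 and 3, against 0.418, 0.41 and 0.584 in wild type. Xist, which is transcribed in female cells, had 12599 and 14608 on replicate 2 of CTLA-4 KO and of wild type and at most 107 on the other arrays.

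Cytotoxic lymphocytes kill by releasing granules at the contact with a target cell. Perforin forms pores, and granzymes, which are serine proteases, enter through them and cleave proteins inside the target. The cells protect themselves with intracellular serpins that trap granzymes, and they control the cysteine cathepsins that mature granzymes with cystatins. These genes are best known from CD8 T cells and natural killer (NK) cells, while the 5C.C7 receptor is carried by CD4 T cells, some of which can also acquire granzyme B and perforin.

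Starts of transcription are shown for the 3 genes that passed the threshold in at least 1 of the models below, Gzmb, Cst7 and Serpinb6b, because these are the members whose levels the comparison of genotypes turns on. Each sequence covers 250 bases before to 50 after the gene's start, is taken from RefSeq on GRCm38.p6 and runs 5′ to 3′ on the gene's strand. The array values name no build, and the sequences were matched to the members by symbol. Capitals mark matches, on either strand, to the motifs TGANTCA (AP-1), TGTGGT (RUNX), TTCNNNGAA (STAT) and TCACACC (T-box). Gzmb lies on the minus strand at chr14:56262285-56262584, Cst7 on the plus strand at chr2:150570165-150570464 and Serpinb6b on the plus strand at chr13:32965011-32965310.
Gzmb: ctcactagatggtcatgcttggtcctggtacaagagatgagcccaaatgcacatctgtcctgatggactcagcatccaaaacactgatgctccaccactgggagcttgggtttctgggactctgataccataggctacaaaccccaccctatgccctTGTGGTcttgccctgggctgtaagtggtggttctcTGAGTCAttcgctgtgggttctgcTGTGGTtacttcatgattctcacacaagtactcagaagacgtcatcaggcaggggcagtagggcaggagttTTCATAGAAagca
Cst7: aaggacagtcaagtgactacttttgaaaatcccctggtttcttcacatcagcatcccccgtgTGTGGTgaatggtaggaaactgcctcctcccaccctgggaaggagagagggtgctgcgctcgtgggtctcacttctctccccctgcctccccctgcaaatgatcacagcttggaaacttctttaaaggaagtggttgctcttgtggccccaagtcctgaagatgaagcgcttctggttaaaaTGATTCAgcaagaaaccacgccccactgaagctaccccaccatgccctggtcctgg
Serpinb6b: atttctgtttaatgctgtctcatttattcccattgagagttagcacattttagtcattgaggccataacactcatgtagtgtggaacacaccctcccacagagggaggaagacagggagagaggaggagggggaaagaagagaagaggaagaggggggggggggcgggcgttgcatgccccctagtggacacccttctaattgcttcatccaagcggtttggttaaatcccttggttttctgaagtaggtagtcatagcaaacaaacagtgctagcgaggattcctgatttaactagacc

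The Gzmb window held 1 AP-1 match that begins 58 bases before the start, 2 RUNX matches that begin 93 and 34 bases before it, and 1 STAT match that begins 37 bases after it. The AP-1 and the STAT match do not overlap the RUNX matches. The Cst7 window held 1 RUNX match and 1 AP-1 match, and the Serpinb6b window held none of these letters. Among all 32851 mouse windows of this length, 7.81% held the AP-1 motif, 16.8% the RUNX motif, 8.3% the STAT motif and 3.98% the T-box motif. For the members, 9 of the 10 genes had a sequence in the table, all but Ctsw, and Gzmm had several starts. Of these 10 windows, 2 held AP-1, 7 held RUNX, 3 held STAT and 3 held T-box letters. A match describes the letters of the window and shows no binding.

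The comparison of genotypes addresses what the loss of CTLA-4 changes in activated T cells. Among the members, Gzmb alone rose by the fit without a block for replicate number: 1 of 10 genes passed a limma adjusted p of 0.05, against 1.69% of the 11990 genes tested (1.19% higher and 0.5% lower). The granzymes Gzma, Gzmk and Gzmm, the pore protein gene Prf1, Nkg7 and Ctsw did not pass in either fit. When same-numbered arrays were compared within their pair (the replicate block), 3 of 10 members passed, Gzmb and Serpinb6b higher and Cst7 lower in CTLA-4 KO cells, against 8.92% of genes (5.48% higher and 3.44% lower). An unadjusted p under 0.05 was reached by 3 of 10 members without the block, against 16.5% of genes. Those 3 are also the genes whose values did not overlap between genotypes, where 22.8% of genes had no overlap. Differences were positive for 5 members and negative for 5, with a median of 0.05 on the log2 scale, against 0.002 over all genes.

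**Figure D1:**
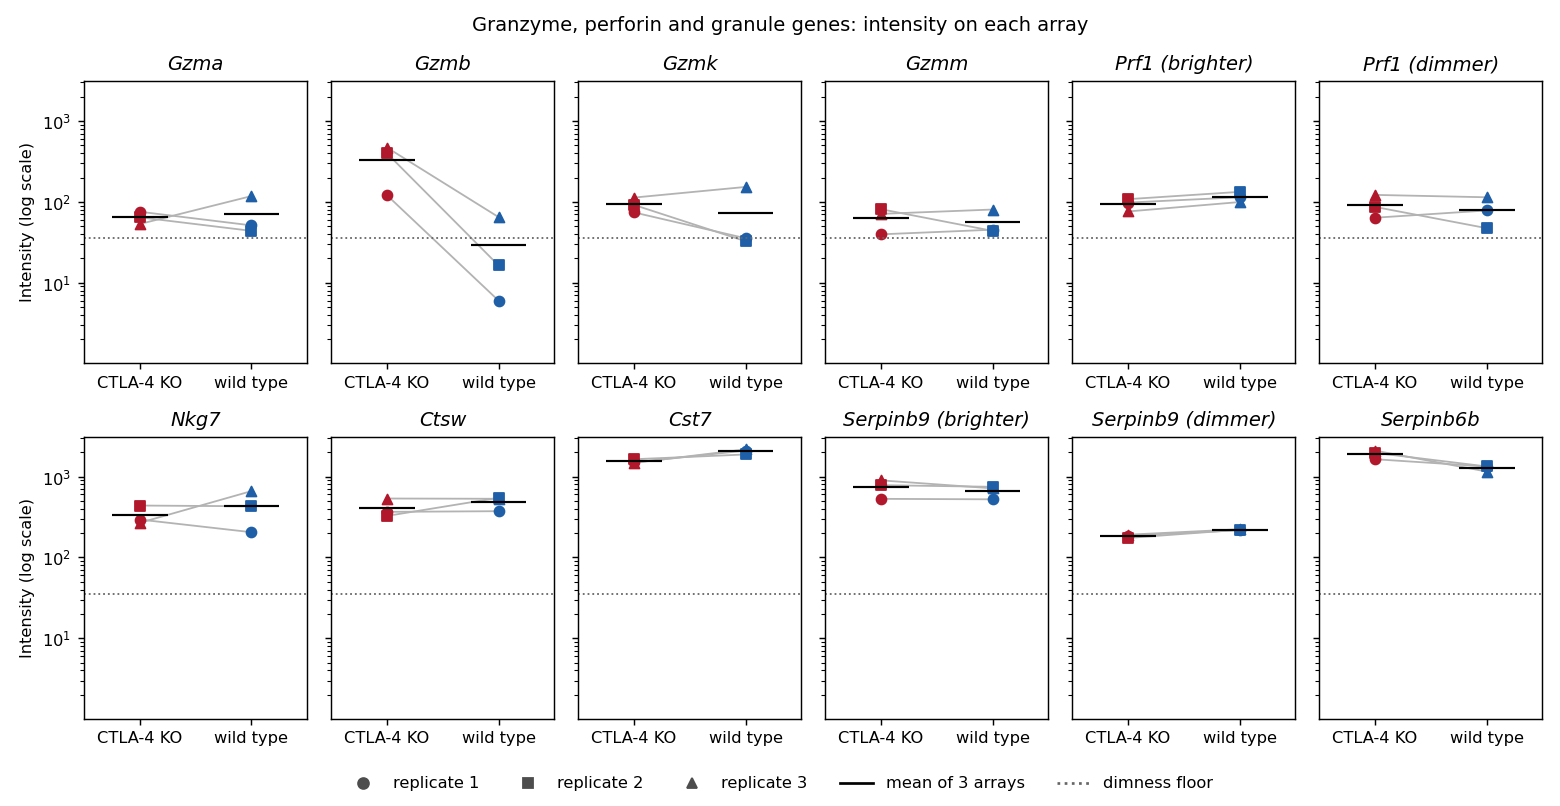
Intensity (log axis) of the 12 probe sets on each array, CTLA-4 KO left and wild type right, with lines joining arrays of the same replicate number, black bars for the mean of 3 arrays and a dotted line at the dimness floor of 35.4. Gzmb is higher on every CTLA-4 KO array, Serpinb6b is higher and Cst7 lower by smaller amounts, and for the other granzymes the genotypes overlap.

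Gzmb encodes granzyme B, which cleaves after aspartate and activates caspases in target cells. Its intensity was 121, 399 and 470 in CTLA-4 KO replicates 1, 2 and 3, against 6.02, 16.4 and 64.9 in wild type replicates 1, 2 and 3. Every CTLA-4 KO array lay above every wild type array, replicate 1 was the lowest and replicate 3 the highest array of each genotype, and the means were 330 ± 184 in CTLA-4 KO and 29.1 ± 31.4 in wild type (SD, n = 3 arrays each). On the log2 scale it differed by 2.97 ± 0.53 (SE, limma adjusted p = 0.0288, 95% interval 1.79 to 4.14), and within pairs 1, 2 and 3 it was 2.64, 3.68 and 2.59. With the replicate block the adjusted p was 4.24e-05 and the interval 2.41 to 3.53.

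The wild type mean of Gzmb lies under the floor of 35.4, so the size of its rise depends on how faint signals are treated. When wild type values under the floor were raised to it, the geometric mean of Gzmb was 6.53-fold higher in CTLA-4 KO cells. That value is an estimate at this floor, not a lower bound. The log2 difference was 3.83 with 1 added before the log in place of 16, and 1.99 with 64 added. Gzmb did not pass without CTLA-4 KO replicate 2 (difference 2.74, limma adjusted p = 0.147) or replicate 3 (2.63, 0.0959), nor without wild type replicate 1 (2.56, 0.0635) or replicate 2 (2.84, 0.0863), and it passed without either of the others. With the Actb ratio as a term the difference was 2.07 (adjusted p = 0.334), and with the Gapdh ratio as a term it was 2.79 (0.0053). The call of Gzmb was also lost with no filter (limma adjusted p = 0.0955), without the trend (0.149) and without moderation (0.294). It was lost without replicate 2 of both genotypes too, and thus under 9 of 21 alternatives. These 9 fits did not use the replicate block.

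Gzma and Gzmk encode trypsin-like granzymes that cleave after basic residues, and their genes lie on chromosome 13. Gzma had 75.5, 64.4 and 53.3 in CTLA-4 KO replicates 1, 2 and 3, against 51.2, 43.8 and 118 in wild type. The genotypes overlapped, wild type replicate 3 was the highest of all arrays, and the log2 difference was -0.03 (limma adjusted p = 0.979, 95% interval -0.74 to 0.69). It was 0.06 after median centring, 0.05 after quantile normalization, 0.08 without CTLA-4 KO replicate 3 and 0.33 without wild type replicate 3, so no direction can be given for Gzma.

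Gzmk had 74.1, 91.8 and 113 in CTLA-4 KO, against 35.5, 32.6 and 153 in wild type. The CTLA-4 KO arrays were above wild type in pairs 1 and 2, by 0.81 and 1.15 on the log2 scale, and below it in pair 3, by -0.39, where wild type was the highest of all arrays. The difference over all arrays was 0.52 (adjusted p = 0.606, 95% interval -0.43 to 1.47), and it was 1.11 without wild type replicate 3 and -0.27 with the Actb ratio as a term, with no adjusted p under 0.05.

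Gzmm, a granzyme with a preference for methionine and leucine that is best known from NK cells, had 39.7, 81.2 and 71.1 in CTLA-4 KO and 45.3, 43.8 and 80.4 in wild type. The values overlapped, and the difference was 0.14 (limma adjusted p = 0.869, 95% interval -0.54 to 0.82). The chromosome 14 cluster that also holds Gzmb includes Gzmc, Gzmd, Gzme, Gzmf, Gzmg and Gzmn, some of them expressed by strongly stimulated killer cells of the mouse. All of these other genes were under the dimness filter. Their summed intensity was 55.2 to 95.9 in CTLA-4 KO and 67.9 to 135 in wild type, and none of these 6 genes was measured above the floor as a mean over all arrays.

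Prf1 encodes perforin. Its brighter probe set had 98, 108 and 76.1 in CTLA-4 KO and 114, 133 and 99.5 in wild type, with CTLA-4 KO below wild type in all 3 pairs (-0.19, -0.27 and -0.33), and its dimmer probe set had 63.7, 86.6 and 122 in CTLA-4 KO and 78.3, 47.3 and 114 in wild type. The probe sets differed in sign, at -0.26 for the brighter (limma adjusted p = 0.612, 95% interval -0.75 to 0.22) and 0.18 for the dimmer (0.825, -0.51 to 0.87). The genotypes overlapped in both.

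Most granzyme and perforin probe sets were close to background. Of the members, only Gzmb in wild type cells had a genotype mean under the floor of 35.4. A stricter gauge came from 27 genes of other organs, such as liver, pancreas and heart, read by 49 probe sets. Some of these genes were bright, such as Cela1 with 822 in CTLA-4 KO and 503 in wild type, so the gauge is not background alone. The 49 probe sets had a median of 11.2 in CTLA-4 KO and 11.5 in wild type. Their 90th percentile was 60.2 in CTLA-4 KO and 68.6 in wild type. Gzma, at 64.4 ± 11.1 in CTLA-4 KO and 71 ± 41 in wild type (SD, n = 3), and Gzmm, at 64 ± 21.7 in CTLA-4 KO and 56.5 ± 20.7 in wild type, lay near that percentile. Gzmk averaged 92.9 ± 19.4 in CTLA-4 KO and 73.7 ± 68.7 in wild type, and the Prf1 probe sets averaged 94 ± 16.3 and 90.7 ± 29.2 in CTLA-4 KO and 116 ± 17 and 79.7 ± 33.1 in wild type. For these dim genes a difference of the width of their intervals was not detectable here, and their lack of a call does not show equal levels.

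Nkg7 encodes a granule membrane protein that mice need for full release of cytotoxic granules, and Ctsw encodes cathepsin W, a cysteine protease of killer lymphocytes. Nkg7 had 294, 438 and 268 in CTLA-4 KO and 205, 429 and 661 in wild type, with the lowest and the highest array both wild type. Its pairs went opposite ways, at 0.49, 0.03 and -1.25, and the difference was -0.24 (limma adjusted p = 0.781, 95% interval -1.01 to 0.52), or 0.13 without wild type replicate 3. Ctsw had 366, 326 and 535 in CTLA-4 KO and 373, 546 and 531 in wild type. Its genotypes also overlapped, and only pair 2 differed by much (-0.72, against -0.03 and 0.01 in pairs 1 and 3), with a difference of -0.24 over all arrays (adjusted p = 0.627, 95% interval -0.71 to 0.22).

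Wild type replicate 3 was the highest wild type array for 6 of the 10 members, namely Gzma, Gzmb, Gzmk, Gzmm, Nkg7 and Cst7. It also had the highest 5' to 3' ratio of Gapdh, 0.25, against 0.103 and 0.0955 on the other wild type arrays and 0.109, 0.205 and 0.178 on the CTLA-4 KO arrays, and the highest wild type sum of the CD8 markers. Their part in these levels was not tested.

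Of the 3 inhibitor genes of the pathway, Serpinb6b and Cst7 had no overlap between genotypes, where 22.8% of all genes had none. Their differences were small, and the dimmer probe set of Serpinb9 had no overlap either. Serpinb6b, an intracellular serpin that inhibits granzyme A in the mouse, had 1638, 1963 and 2091 in CTLA-4 KO replicates 1, 2 and 3, against 1331, 1333 and 1153 in wild type. Every CTLA-4 KO array lay above every wild type array, with means of 1897 ± 234 in CTLA-4 KO and 1273 ± 103 in wild type (SD, n = 3). The log2 difference was 0.57 ± 0.13 (SE, 95% interval 0.29 to 0.85), with 0.3, 0.55 and 0.85 in pairs 1, 2 and 3. Its limma adjusted p was 0.0615 without the block and 0.00934 with it.

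Cst7 encodes cystatin F, which inhibits the cathepsins that mature granzymes. It had 1493, 1637 and 1479 in CTLA-4 KO and 2095, 1875 and 2166 in wild type, so that every CTLA-4 KO array was below every wild type array. The log2 difference was -0.41 ± 0.11 (SE, 95% interval -0.65 to -0.17), with -0.48, -0.19 and -0.55 in pairs 1, 2 and 3. The limma adjusted p was 0.105 without the block and 0.0253 with it. Among CTLA-4 KO arrays replicate 2 was the highest and among wild type arrays the lowest, which made pair 2 the closest.

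Serpinb9, the serpin that inhibits granzyme B, is read by 2 probe sets that disagree. The brighter had 530, 782 and 897 in CTLA-4 KO and 523, 747 and 715 in wild type, and the dimmer had 186, 174 and 191 in CTLA-4 KO and 217, 220 and 223 in wild type. The brighter one overlapped between genotypes (difference 0.14, limma adjusted p = 0.797, 95% interval -0.32 to 0.59), and the dimmer one was lower on all CTLA-4 KO arrays (-0.24, 0.519, -0.6 to 0.12). The replicate block called neither. Of the other intracellular serpins of this clade, 12 of 17 listed genes were on the array and 2 passed the filter, Serpinb6a with 843 ± 78.6 in CTLA-4 KO and 780 ± 90.2 in wild type (adjusted p = 0.739) and Serpinb6e with 300 ± 54 in CTLA-4 KO and 327 ± 150 in wild type (0.957).

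**Figure D2:**
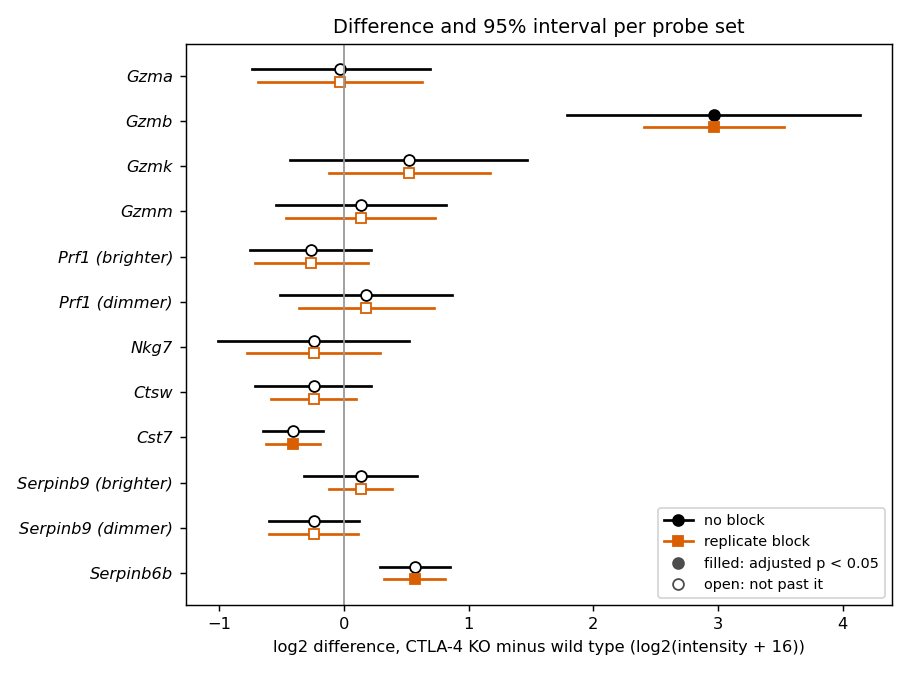
Log2 difference of each of the 12 probe sets, CTLA-4 KO minus wild type on the log2(intensity + 16) scale, with 95% intervals from limma without a block (black) and with the replicate block (orange), filled where the adjusted p is under 0.05. Gzmb stands at 2.97, Serpinb6b at 0.57 and Cst7 at -0.41, and the intervals of the other probe sets include 0.

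Genes that process, move and release granules were compared next, in a list of 28 genes of which 25 passed the filter. By the fit without a block 1 gene rose, no gene fell and the median was 0.08 on the log2 scale, against 1.19% of all genes higher and 0.5% lower. With the replicate block 6 were higher and 1 lower, against 5.48% of all genes higher and 3.44% lower. The gene that rose was Stx11, which encodes syntaxin 11, a protein needed for the fusion of cytotoxic granules with the cell membrane. It had 4203, 4701 and 5913 in CTLA-4 KO replicates 1, 2 and 3, against 2787, 2470 and 2597 in wild type, so the genotypes were well apart. The difference was 0.9 ± 0.13 (SE, limma adjusted p = 0.0126, and 0.000513 with the block), its other probe set had 0.5, and the call was lost under 6 of 21 alternatives. These were the fits without CTLA-4 KO replicate 2 (adjusted p = 0.0574), without wild type replicate 3 (0.0503), without replicate 2 of both genotypes (0.164), with the Actb ratio as a term (0.151), without the trend (0.128) and without moderation (0.212).

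Another 5 genes of the list passed with the block and not without it. Rab27a, the GTPase that docks granules, had 3325 ± 113 in CTLA-4 KO and 2625 ± 144 in wild type (SD, n = 3), with a limma adjusted p of 0.119 without the block and 0.0325 with it. Lyst, which controls the size of lysosomes and granules, had 1547 ± 68.3 in CTLA-4 KO and 1147 ± 162 in wild type (0.128, and 0.0262 with the block), although a dim probe set of the same gene had a difference of 0. Ctsl, a lysosomal cathepsin, had 614 ± 41.1 in CTLA-4 KO and 441 ± 33.1 in wild type (0.129, and 0.04 with the block). Vamp7, a vesicle fusion protein, and Lamp1, the lysosomal membrane protein that reaches the surface when granules are released, had differences of 0.53 and 0.32 (0.0114 and 0.0378 with the block). The other Vamp7 probe set had 0.27, with overlap, and did not pass (limma adjusted p = 0.185 with the block). The 1 that was lower by the block was Tnfsf10, the death ligand TRAIL, at 507 ± 48.8 in CTLA-4 KO and 739 ± 123 in wild type (0.14, and 0.0401 with the block). Vamp7, Lamp1 and Tnfsf10 were chosen after their values were seen.

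Other genes of the machinery were not called. Ctsc, the cathepsin that activates granzymes, had a log2 difference of 0.05 (limma adjusted p = 0.887, 95% interval -0.22 to 0.31), and Srgn, the proteoglycan serglycin that stores them, one of 0.14 (0.538, -0.08 to 0.36). Ctsc, Srgn and Fasl were chosen after their values were seen. Fasl, the ligand of the Fas death receptor, had 339 ± 13.8 in CTLA-4 KO and 268 ± 50.4 in wild type (adjusted p = 0.385, and 0.193 with the block).

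**Figure D3:**
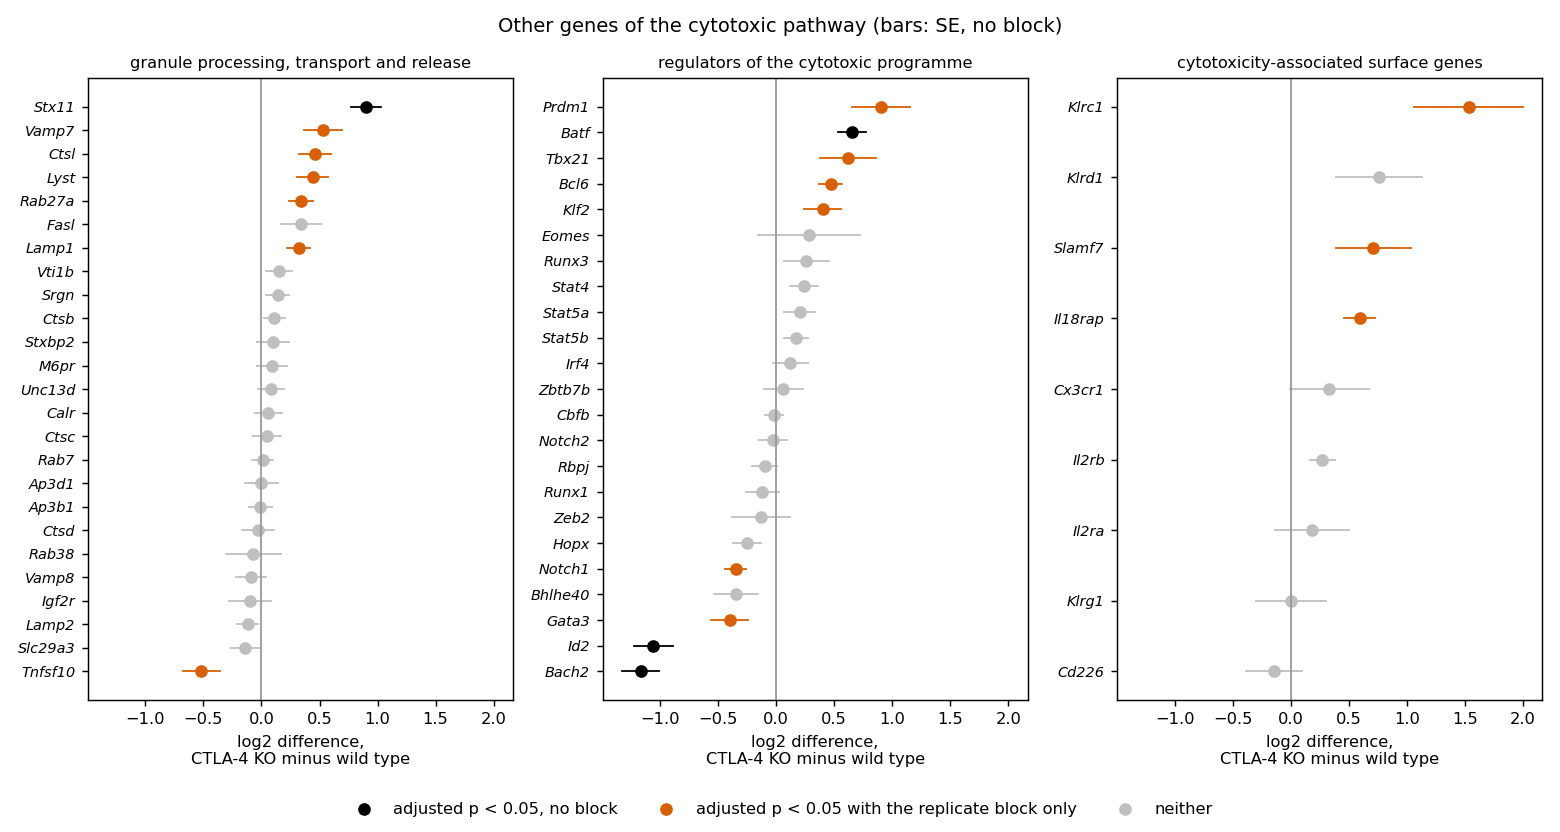
Log2 difference ± SE, CTLA-4 KO minus wild type, of each measured gene in the lists of granule processing and release (25 genes), regulators (23) and surface genes (9), black where limma's adjusted p is under 0.05 without a block and orange where it is so with the replicate block alone. Stx11 and Batf are the black points above 0, and Id2 and Bach2 those below it.

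Transcription factors known to raise or restrain the cytotoxic programme moved in both directions. Of 23 measured regulators, 1 rose and 2 fell by the fit without a block, against 1.19% and 0.5% of all genes, with a median of 0.06. Id2, an inhibitor of E proteins that effector T cells carry, had 2765, 3178 and 2342 in CTLA-4 KO and 4301, 6728 and 6438 in wild type, a difference of -1.06 ± 0.17 (SE, limma adjusted p = 0.0193). The genotypes did not overlap. Its call was lost under 8 of 21 alternatives, which were the fits without CTLA-4 KO replicate 3 (adjusted p = 0.0611), without wild type replicate 2 (0.0629) or 3 (0.0817), without replicate 2 of both genotypes (0.148), with no filter (0.0654), with the Actb term (0.0985), without the trend (0.143) and without moderation (0.26). Bach2, a repressor of effector genes, fell by 1.17 (adjusted p = 0.0112, and 0.0606 without CTLA-4 KO replicate 2), and a second of its probe sets had -1.43. Batf, an AP-1 family factor of effector T cells, had a difference of 0.65 (0.0347) and passed in 1 of 6 fits that left out an array, the one without wild type replicate 3. With the Actb term neither Bach2 (0.198) nor Batf (0.364) passed. Both were also lost without the trend (0.124 and 0.157) and without moderation (0.223 and 0.218), and Batf with no filter (0.0687). The call of Bach2 was lost under 5 of 21 alternatives and that of Batf under 10 of 21.

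With the replicate block 5 regulators were higher and 4 lower, against 5.48% and 3.44% of all genes. The higher ones were Batf, Bcl6, Klf2, Prdm1 and Tbx21, and the lower ones Bach2, Id2, Notch1 and Gata3. Prdm1, which encodes Blimp-1, and Tbx21, which encodes T-bet, are factors that act on Gzmb in killer cells, and both were chosen here after their values were seen. Prdm1 was dim, at 80.5, 118 and 138 in CTLA-4 KO and 50.9, 45.6 and 58.1 in wild type, with no overlap (limma adjusted p = 0.114, and 0.0366 with the block). Tbx21 had 284, 357 and 379 in CTLA-4 KO and 141, 263 and 263 in wild type, again with no overlap (0.246, and 0.0331 with the block). Eomes, the related T-box factor of killer cells, was dim, at 46.3 ± 10.6 in CTLA-4 KO and 43.6 ± 40.2 in wild type (0.807).

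Of 9 measured surface genes that go with cytotoxicity, none passed without the block, against 1.69% of all genes, and with it 3 were higher, against 5.48% of all genes. Klrc1, which encodes the inhibitory NK receptor chain NKG2A, had 120, 204 and 238 in CTLA-4 KO replicates 1, 2 and 3, against 13.6, 65.6 and 114 in wild type. The lowest CTLA-4 KO array was just above the highest wild type array, and as for Gzmb replicate 1 was the lowest of each genotype and replicate 3 the highest. The difference was 1.53 ± 0.47 (SE, limma adjusted p = 0.145, and 0.00342 with the block), or 0.86 to 2 over the alternatives. Another Klrc1 probe set was under the dimness filter, with a difference of 0.23 and overlapping genotypes.

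Klrd1, which encodes the partner chain CD94 and was chosen after its values were seen, had 276, 273 and 281 in CTLA-4 KO and 66, 212 and 261 in wild type (adjusted p = 0.361, and 0.107 with the block). Slamf7, a receptor of activated lymphocytes, had 204 ± 51.8 in CTLA-4 KO and 125 ± 58.3 in wild type (0.316, and 0.0423 with the block), and its genotypes overlapped. Il18rap, a chain of the interleukin-18 receptor, had 940, 982 and 888 in CTLA-4 KO and 562, 690 and 603 in wild type, with no overlap (0.0581, and 0.00669 with the block). It also passed with array weights (0.0426) and with the mean of its probe sets (0.0361). Il2rb, the chain shared by the receptors of interleukin-2 and interleukin-15, had 1271 ± 43.3 in CTLA-4 KO and 1055 ± 74.2 in wild type (0.287). A dimmer Il2rb probe set had a difference of 0.02.

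The genes whose pattern over the 6 arrays was nearest to that of Gzmb were found by the root mean square difference of log2 values. Each gene was centred on its own mean, and genes with provisional symbols, such as Gm numbers and Rik names, were left out. Dnase1l3, a secreted endonuclease, was the nearest at 0.5, with 75.9, 190 and 153 in CTLA-4 KO and 2.84, 2.5 and 9.45 in wild type. It was followed by Cd22, an inhibitory receptor of B cells, at 0.76, Myo1f, an unconventional myosin of leukocytes, at 0.77, Csrp1 at 0.78 and the receptor kinase gene Ltk at 0.81. None of these is a member. Nearness to Gzmb includes its gap between genotypes, so the choice itself favours genes that differ between them. The p-values of these genes are therefore no separate evidence of a difference. Csrp1 (limma adjusted p = 0.0535) and Ltk (0.0535) did not pass without the block, and Ltk, like Gzmb and Dnase1l3, had a wild type mean under the floor.

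Markers of other cells that carry granzymes were read on the same arrays. CD8 T cell markers summed to 315, 344 and 513 in CTLA-4 KO and 262, 325 and 422 in wild type, and neither Cd8a (limma adjusted p = 0.84) nor Cd8b1 (0.645) passed. Of 10 NK cell genes on the array 3 passed the filter, Klrc1, Klrd1 and Eomes, with 1 called by the block. Their list summed to 616 to 737 in CTLA-4 KO and 281 to 642 in wild type, and the defining receptor Ncr1 was under the filter. Of 9 mast cell and basophil genes 3 passed the filter, with sums of 314 to 446 in CTLA-4 KO and 202 to 315 in wild type. Kit alone of the 3 was higher with the block (187 ± 40.6 in CTLA-4 KO and 66.1 ± 50.1 in wild type, limma adjusted p = 0.0902, and 0.0188 with it). The others, Tpsb2 (-0.06) and Cma1 (-0.27), had negative differences with overlap. Over all genes the block called 5.48% higher. The part of these other cells in the Gzmb difference was not tested.

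In the remaining lists of cell type markers at most 1 gene each was called without the block, where 1.69% of all genes were. B cell markers summed to 833 to 1382 in CTLA-4 KO and 448 to 755 in wild type, where Cd22 was 1 of 4 measured genes and the only one called, while Cd79b, Ms4a1 and Vpreb3 had differences of -0.23, -0.16 and -0.39. Of 4 measured dendritic cell genes Irf8 alone was called, at 2197 ± 106 in CTLA-4 KO and 1107 ± 262 in wild type (limma adjusted p = 0.0193). Zbtb46 (-0.54) and Itgax (-0.32) had negative differences without overlap, and Siglech a positive one (0.33) with overlap. Of 6 measured myeloid genes none was called, with sums of 458 to 731 in CTLA-4 KO and 509 to 546 in wild type. The 11 T cell markers summed to 82645 to 83797 in CTLA-4 KO and 80334 to 89616 in wild type. None of them passed without the block. With it Lat was higher (difference 0.32, limma adjusted p = 0.0437) and Cd3g (-0.35, 0.029) and Cd28 (-0.34, 0.0299) lower, all 3 without overlap. Over all genes the block called 5.48% higher and 3.44% lower, and 22.8% had no overlap. Of 3 measured plasma cell genes Xbp1 passed with the block and not without it (0.129, and 0.0465 with it), and Hba-a2, the 1 measured red cell gene, was not called.

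**Figure D4:**
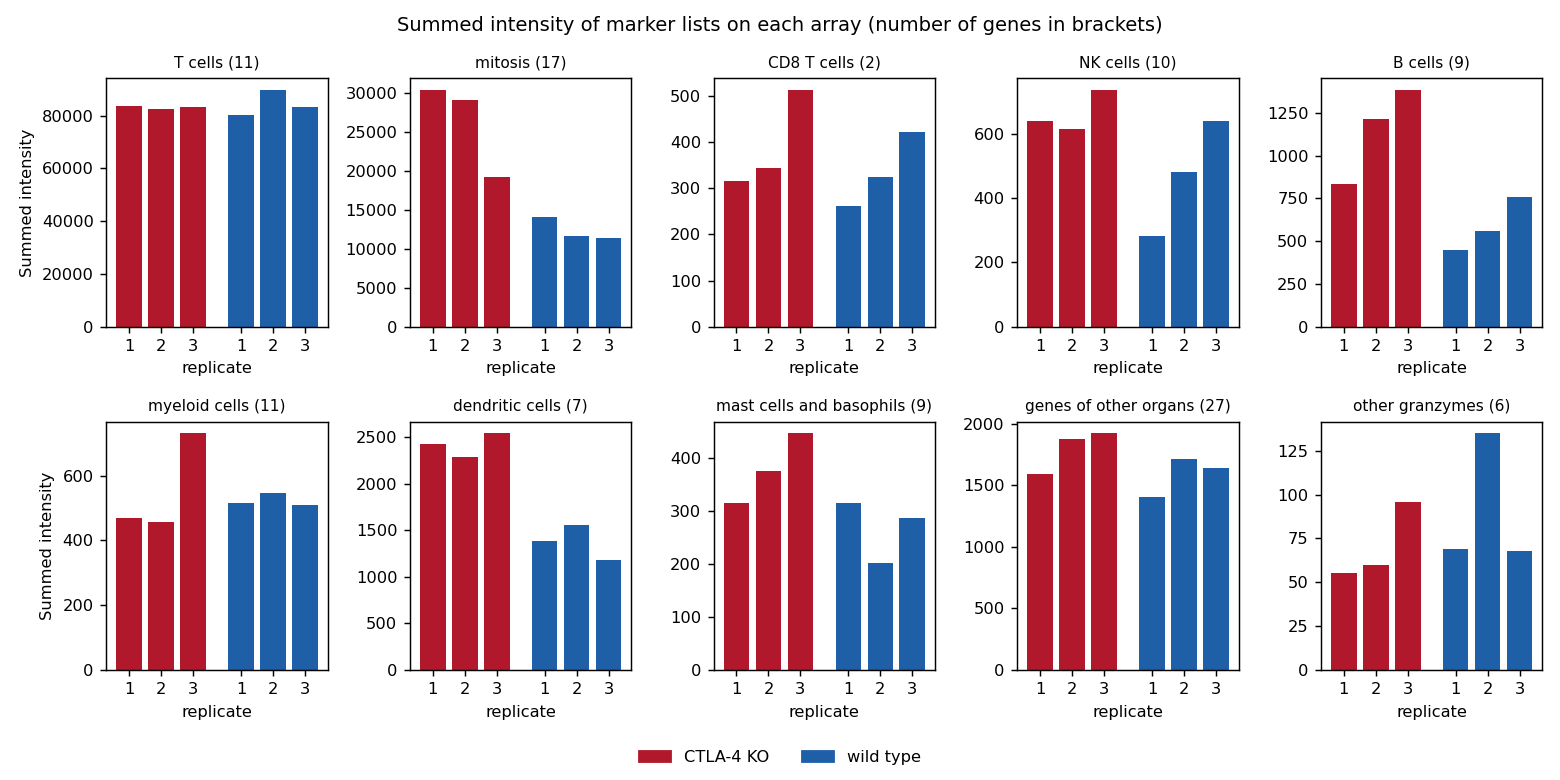
Summed intensity of marker lists on each array (bars from 0, a scale of its own per panel), CTLA-4 KO replicates in red on the left and wild type replicates in blue on the right, with the number of genes summed in brackets. T cell sums overlap between genotypes, mitosis sums are higher on every CTLA-4 KO array, and CD8 sums overlap between genotypes.

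Genes of mitosis moved with the genotype too, and all 17 measured ones had a positive difference, with a median of 1.07. By the fit without a block 10 of 17 were called higher, against 1.19% of all genes. With the replicate block all 17 were, against 5.48% of all genes. Their sum was 30361, 29166 and 19167 in CTLA-4 KO replicates 1, 2 and 3, against 14100, 11646 and 11393 in wild type. Within each genotype the mitosis sum was highest in replicate 1 and lowest in replicate 3, where Gzmb was lowest in replicate 1 and highest in replicate 3. The part of cell division in the levels of Gzmb was not tested.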

How the data were processed

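Per the labels' protocols, 2 µg of total RNA from sorted cells gave the biotin-labelled cRNA for each Affymetrix array. One table deposited by the authors holds linear intensity values of 45101 probe sets on 6 arrays. The submitters' processing notes name MAS5 and Partek, with no versions. The table has no detection calls, and MAS5 leaves faint values noisy, which affects dim granzymes.

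The 64 control probe sets were left out, and values became log2(intensity + 16). The filter kept 27022 probe sets with a mean log2 value at or above the 40th percentile, which corresponds to an intensity of 35.4. Genotypes were compared in limma 3.58.1 under R 4.3.3 (eBayes with an intensity trend, both directions, Benjamini-Hochberg over all kept probe sets, threshold 0.05), without and with replicate number as a block. It was tested on simulated data. The number of arrays limits the precision.

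Replicate numbers come from the titles. Deviations from the genotype means had correlations of 0.371, 0.24 and 0.254 between same-numbered arrays. All exceed 0.1, and the pairs were therefore compared in the fit with the replicate block. The fit without a block and the other alternatives did not use the pairing.

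Of the probe sets, 34958 had 1 gene in the annotation, 932 several and 9211 none; symbols were updated through gene IDs for 34754. A gene is represented by its probe set with the highest mean. All members were named, with up to 4 genes per pathway list by smallest p and called genes of the marker lists. The 5 genes nearest to Gzmb, provisional symbols left out, were named too. Members, lists, tests and alternatives were chosen with earlier results of these data known.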

Additional observations from a re-analysis of the deposited data

How the results depend on the processing

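The number of probe sets called was 339, and within 1.5 times of it with the 20th percentile filter, either pseudocount, median centring, quantile normalization, the Gapdh term and without cross-hybridising probe sets. It was 111 with no filter, 20 without the trend, 0 without moderation (where limma gave 3611 at an unadjusted p under 0.05), 521 with array weights, 2341 with the replicate block, 21 with the Actb ratio as a term, 46 without replicate 2 of both genotypes, 832 at a threshold of 0.1, and 62 to 217 without 1 array. Of the 339, 62.5% were higher in CTLA-4 KO cells. That share was 81.5% under median centring, 44.6% with the replicate block, 42.9% with the Actb term, and 51.5% to 73.4% without 1 array. The number of members called was 1; it was 0 with no filter, without the trend, without moderation, with the Actb term and without replicate 2 of both genotypes, 2 with array weights and at 0.1 (Gzmb and Serpinb6b), 3 with the replicate block and with the mean of each gene's probe sets (Gzmb, Cst7 and Serpinb6b), and 0 to 1 without 1 array. The block changed no other call among the members.

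Differences that changed sign were not past the threshold in any fit of limma named here. Median centring gave Gzma 0.0625 and Serpinb6e 0.0454, and quantile normalization gave 0.0528 and 0.0114. The mean of probe sets gave Serpinb9 -0.0537. The Actb term gave Gzmk -0.272, Gzmm -0.321, Serpinb6a -0.0534 and Serpinb6e 0.127. Without replicate 2 of both genotypes Gzmm had -0.143 and Serpinb6e 0.287. Without 1 array the differences ran over -0.249 to 0.334 for Gzma, -0.0216 to 0.381 for Gzmm, -0.683 to 0.125 for Nkg7, -0.0212 to 0.35 for Serpinb9 and -0.284 to 0.29 for Serpinb6e. The cause of these changes was not tested. Signal over background limits Gzma, Gzmk, Gzmm and Prf1.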
